A study of Mus musculus with 14 samples.

Results

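Genes of fatty acid oxidation and lipid uptake were followed, 8 in all: the lipoprotein lipase gene Lpl with its regulators Angptl4 and Apoc3, the fatty acid receptor gene Cd36, and the fuel oxidation genes Cpt1a, Acadm, Ehhadh and Pdk4. They were chosen by gene symbol and make up 8 of the 56980 gene IDs counted, and all 8 passed the filter on low counts. Bulk mRNA sequencing had been done on whole kidneys of 14 female wild-type mice of the outbred CD-1 stock, aged 18 weeks, with 1 library per mouse. The groups were term non-diabetic (T-ND, 4 mice, no treatment), term diabetic (T-D, 4 mice, streptozotocin), preterm non-diabetic (PT-ND, 3 mice, no treatment) and preterm diabetic (PT-D, 3 mice, streptozotocin). Streptozotocin (STZ) destroys the insulin-producing beta cells of the pancreas. It had been injected in early adulthood in the study's low-dose scheme, and the study gave some PT-D mice a second course. Preterm pups had been delivered by Caesarean section before term and raised by foster mothers given acepromazine, and term pups had been born vaginally and stayed with their own mothers. Preterm birth therefore cannot be told apart from this delivery and rearing. By the study's protocol the mice of every group had been injected with cationic ferritin for imaging, and the left kidney had been clamped off before fixative was perfused.

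Kidney proximal tubules meet most of their energy demand by oxidising fatty acids. Lipoprotein lipase releases fatty acids from circulating triglyceride, ANGPTL4 and apolipoprotein C-III inhibit it, and CD36 helps carry the fatty acids into cells. CPT1A passes long-chain fatty acids into mitochondria, medium-chain acyl-CoA dehydrogenase (Acadm) starts the breakdown of medium-chain ones, and the bifunctional enzyme EHHADH acts in peroxisomes. PDK4 phosphorylates and inactivates pyruvate dehydrogenase, so that less glucose carbon enters the citric acid cycle. Many of these genes are known targets of the nuclear receptors of the PPAR family, which sense fatty acids.

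Counts on genes per library lay between 16697246 and 28673176. Defining genes of kidney cells were counted in every library, with at least 34750 reads of the proximal tubule phosphate carrier Slc34a1 and 14294 of Umod. The names of 5 libraries carry the suffix a, whose meaning the labels do not give. In T-ND they are replicates 1 and 2, while the first T-D, the second PT-ND and the first PT-D library complete the set, so that each group holds libraries of both kinds. The summed markers of 2 cell types lay higher in every PT-D library than in every other library. The 6 endothelial markers summed to between 6934 and 8633 normalized counts in PT-D and to at most 6587 elsewhere, and the 4 podocyte markers to between 8738 and 11072 and at most 8521. Of the 6 endothelial markers taken singly, 4 were higher and 2 lower in PT-D against T-ND, and likewise in PT-D against PT-ND. The 4 markers of the thick ascending limb summed to between 51898 and 77535 in T-ND, 27012 and 52134 in T-D, 41329 and 58019 in PT-ND, and 19304 and 45815 in PT-D. In whole-kidney RNA, fewer cells of a type and less RNA per cell cannot be told apart.

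Promoter windows of the reference were found for 5 of the 8 genes in RefSeq (build GRCm38.p6), each from 250 bases before to 50 bases after the gene's start. Printed are those of Pdk4 and of Acadm and Cd36, the gene pair whose counts followed each other most closely. Capitals mark AGGTCA, the core element of nuclear receptors, or CCAAT, the box bound by NF-Y, each on either strand. The Pdk4 window (chr6:5496229-5496528, minus strand) holds 1 CCAAT box, the Acadm window (chr3:153944594-153944893, minus strand) 1 such core element, and the Cd36 window (chr5:17835847-17836146, minus strand) 1 of each.
Pdk4: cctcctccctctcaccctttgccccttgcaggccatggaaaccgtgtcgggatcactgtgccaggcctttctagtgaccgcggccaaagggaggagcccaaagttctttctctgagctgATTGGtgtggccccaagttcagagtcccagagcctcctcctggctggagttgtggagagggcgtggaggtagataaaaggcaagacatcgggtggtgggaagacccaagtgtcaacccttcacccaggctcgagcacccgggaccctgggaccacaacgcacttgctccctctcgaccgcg
Acadm: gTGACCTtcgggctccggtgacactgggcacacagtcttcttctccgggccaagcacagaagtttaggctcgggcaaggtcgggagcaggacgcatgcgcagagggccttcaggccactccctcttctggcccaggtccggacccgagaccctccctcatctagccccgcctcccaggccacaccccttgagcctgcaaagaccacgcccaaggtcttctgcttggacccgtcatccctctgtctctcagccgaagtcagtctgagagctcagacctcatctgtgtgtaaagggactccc
Cd36: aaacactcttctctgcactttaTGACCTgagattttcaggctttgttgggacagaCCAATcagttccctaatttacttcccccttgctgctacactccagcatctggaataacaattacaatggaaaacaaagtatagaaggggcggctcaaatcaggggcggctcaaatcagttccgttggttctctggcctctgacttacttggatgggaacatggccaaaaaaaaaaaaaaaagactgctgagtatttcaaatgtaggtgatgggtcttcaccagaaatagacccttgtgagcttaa
The core element stood in 3 of the 5 windows (Acadm, Cd36 and Cpt1a), against 16.3% of all 32851 promoter windows, and CCAAT in 4 (Cd36, Cpt1a, Pdk4 and Ehhadh), against 37.4%. AGGTCANAGGTCA, the direct repeat that PPARs bind together with RXR, was searched on both strands with at most 2 mismatches in its 12 defined letters. Only the Cd36 window held it among the 5, against 3.86% of all windows. These are matches of letters and not measured sites. Angptl4, Lpl and Apoc3 had no entry.

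All levels below are normalized counts, the counts of a library scaled by edgeR's TMM factors to the mean library size of the 14. Log2 fold changes are followed by their standard error and by the p-value of edgeR's quasi-likelihood test, two-sided and adjusted over all genes tested. A gene was called when its adjusted p was under 0.05, and a DEG when its log2 fold change was also above 1 or below −1. Nothing in the labels links the mice of a group to separate litters, so that p-values measure the spread between these mice only. Lpl and Apoc3 are among the genes that the study itself picked out from these libraries.

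Angptl4 (ENSMUSG00000002289.17, chromosome 17 from 33992724 to 34000804 in GRCm39) encodes the secreted inhibitor of lipoprotein lipase that is induced by fasting and fatty acids. It had 1475, 880, 3664 and 3362 normalized counts in T-ND and 5257, 6376, 6670 and 5298 in T-D. PT-ND libraries had 3346, 2866 and 2780, and PT-D libraries 5601, 4691 and 5479. Every one of the 7 STZ libraries lay above every one of the 7 untreated ones, as for 62 of the 22339 genes (0.278%). Means were 5624 ± 682 with STZ and 2625 ± 1048 without (SD, n = 7 each). Averaged over both birth groups, STZ raised Angptl4 by 1.07 (SE 0.24, adjusted p = 0.0309), and it was the only one of the 8 genes called in this comparison, where 3.01% of all genes were. Of the 8, 5 had an unadjusted p under 0.05 (19.9% of all genes), and DESeq2 called Angptl4, Acadm and Lpl (1869 of all 22339 genes).

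Within the preterm mice the Angptl4 difference was 0.81 (SE 0.15, adjusted p = 0.00965 in edgeR), with PT-D at 5257 ± 494 and PT-ND at 2997 ± 305 (SD, n = 3 each). Within the term mice it was 1.31 (SE 0.37, adjusted p = 0.218), with a wider spread among the T-ND libraries. PT-D against T-ND gave 1.16 (SE 0.41, adjusted p = 0.128) and PT-D against T-D −0.17 (SE 0.17, adjusted p = 0.592). Without the suffix libraries T-D against T-ND was 0.80 and PT-D against T-ND 0.52 (adjusted p = 0.625 and 0.162). The 2 STZ effects differed by −0.52 (SE 0.48, adjusted p = 0.543 for the interaction of preterm birth and STZ). Among libraries without the suffix the STZ effect averaged over birth groups was 0.77 (SE 0.14, adjusted p = 0.0549). Leaving out 1 library ended the call in 7 of 14 fits, with adjusted p = 0.06 without T-ND replicate 1, 0.0644 and 0.0561 without T-D replicates 2 and 3, 0.0886 and 0.0784 without PT-ND replicates 2 and 3, and 0.0545 and 0.0677 without PT-D replicates 1 and 3. In the preterm mice the call was lost without PT-ND replicate 2 (adjusted p = 0.0554), among libraries without the suffix (0.73, adjusted p = 0.0729) and when all 14 libraries shared 1 estimate of the spread (adjusted p = 0.162).

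**Figure D1:**
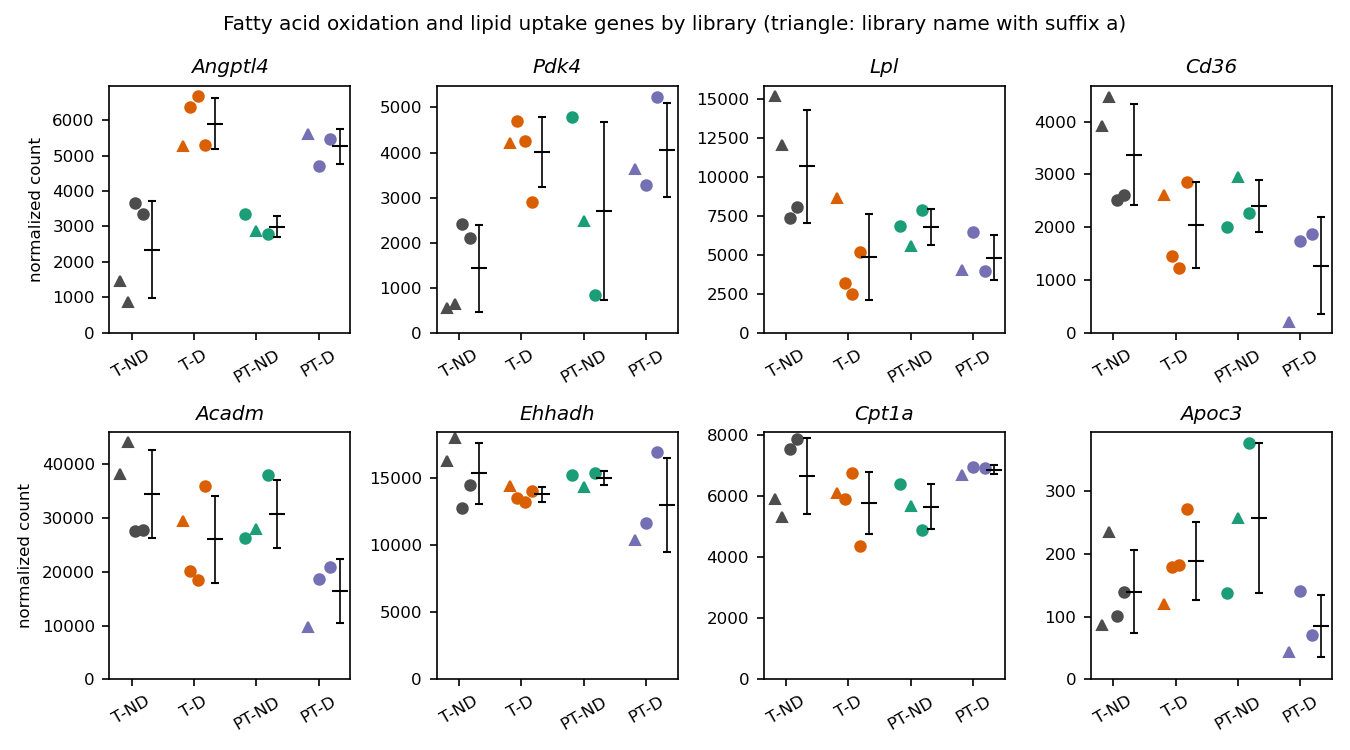
Normalized counts of the 8 genes (y axes, linear from 0) in each of the 14 libraries by group; triangles are libraries whose name has the suffix a, and black bars the group mean ± SD. The 7 STZ libraries lie above the 7 untreated ones for Angptl4, and T-ND replicates 1 and 2 lie apart from replicates 3 and 4 for Lpl, Pdk4, Angptl4, Acadm and Cd36.

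Lpl (ENSMUSG00000015568.17, chromosome 8 from 69284603 to 69360100) encodes the lipase itself. It had 15160, 12043, 7371 and 8094 normalized counts in T-ND and 8623, 3207, 2497 and 5160 in T-D. PT-ND libraries had 6846, 5592 and 7876, and PT-D libraries 4023, 6480 and 3936. The PT-D libraries lay below all T-ND libraries, as for 11.2% of all genes, while STZ and untreated libraries overlapped in T-D against T-ND and in PT-D against PT-ND.

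The PT-D against T-ND difference of Lpl was −1.16 (SE 0.28, adjusted p = 0.0559), on the uncalled side of the threshold. It was called without T-ND replicate 3 (adjusted p = 0.0189) and in DESeq2 (adjusted p = 0.00187), and among libraries without the suffix it was −0.58 (SE 0.23, adjusted p = 0.281). Averaged over birth groups, STZ gave −0.81 (SE 0.25, adjusted p = 0.0877), with −1.14 in T-D against T-ND and −0.49 in PT-D against PT-ND. PT-D against PT-ND was called without PT-D replicate 2 (−0.77, adjusted p = 0.0374). The 2 effects differed by 0.64 (SE 0.50, adjusted p = 0.465). The averaged effect was called without T-ND replicate 3 (adjusted p = 0.0448), without T-D replicate 1 (adjusted p = 0.0218) and in DESeq2 (adjusted p = 0.0221). PT-ND against T-ND gave −0.66 (SE 0.24, adjusted p = 0.407), and −0.07 (SE 0.19) among libraries without the suffix.

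Adipocytes are rich in Lpl, and their markers varied between libraries by more than any group difference. The 7 adipocyte markers (Adipoq, Lep, Plin1, Cidec, Retn, Cfd and Car3) summed to 5301, 32.9, 53.4 and 7291 normalized counts in T-ND and to 7163, 420, 54.9 and 115 in T-D. They summed to 73.0, 1615 and 6904 in PT-ND and to 70.2, 7328 and 75.2 in PT-D, so that every group held libraries at both ends. Adipoq was at 0 reads in 5 of the 14 libraries and Lep in 9. Over the 14 libraries the log2 sum had a Pearson r of 0.42 (Spearman 0.27) with Lpl, 0.86 (0.87) with Fabp4, the fatty acid binding protein of adipocytes and endothelium, and between −0.26 and 0.28 with the other 7 genes. Without the 2 libraries farthest from the median sum, r was 0.41 for Lpl and 0.81 for Fabp4. T-ND replicate 1, with the highest Lpl, had a sum of 5301, and T-ND replicate 2, with the second-highest Lpl, had the lowest sum. In the 8 libraries with fewer than 50 normalized counts of Adipoq, the STZ effect averaged over birth groups was −1.10 for Lpl and 1.08 for Angptl4. PT-D against T-ND gave −1.30 for Lpl (SE 0.30, adjusted p = 0.418). Few libraries of each group remained there, and PT-ND replicate 1 was the only PT-ND library with a low sum. The part of adipocytes in the Lpl differences was not tested.

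Apoc3 (ENSMUSG00000032081.11, chromosome 9 from 46142527 to 46146934) encodes the apolipoprotein that inhibits lipoprotein lipase and slows the clearance of triglyceride-rich particles, and is known mainly from liver and intestine. It was the lowest of the 8 genes, with 48 to 326 reads per library. Normalized counts were 86.7, 234, 101 and 139 in T-ND and 120, 179, 182 and 272 in T-D. They were 138, 257 and 376 in PT-ND and 43.8, 140 and 70.4 in PT-D. Both preterm groups met at one value, the lowest PT-ND library lying just below the highest PT-D library.

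PT-D against PT-ND gave −1.59 for Apoc3 (SE 0.44, adjusted p = 0.0386 in edgeR), from 257 ± 119 to 84.7 ± 49.7 normalized counts (SD, n = 3 each). Apoc3 was the only DEG among the 8 in this comparison, as were 4.95% of all genes. Apoc3 and Angptl4 were the 2 of 8 genes called in it, where 12.9% of all genes were called, and 4 of the 8 had an unadjusted p under 0.05 (29.1% of all genes). In T-D against T-ND the difference was 0.40 (SE 0.33, adjusted p = 0.651), and the 2 effects differed by −2.01 (SE 0.61, adjusted p = 0.0582). PT-D against T-D gave −1.15 (SE 0.39, adjusted p = 0.125) and PT-ND against T-ND 0.87 (SE 0.38, adjusted p = 0.464). PT-D against T-ND gave −0.74 (SE 0.45, adjusted p = 0.336), and the STZ effect averaged over birth groups was −0.59 (SE 0.30, adjusted p = 0.30). PT-D against T-ND moved from −0.37 without T-ND replicate 2 to −1.30 without PT-D replicate 2, and was −0.20 without the suffix libraries. The PT-D against PT-ND call was lost without PT-ND replicate 2 or 3 (adjusted p = 0.0915 and 0.161), without PT-D replicate 1 or 3 (0.0691 and 0.109), and among libraries without the suffix (0.123). EdgeR called the interaction without T-ND replicate 2 (adjusted p = 0.0417), T-D replicate 1 (0.045), PT-ND replicate 1 (0.0387) or PT-D replicate 2 (0.0487). DESeq2 called the interaction (adjusted p = 0.0104) and PT-D against T-D (adjusted p = 0.034).

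Of the 6 hepatocyte markers listed, 3 were at or near 0 in these kidneys. The other 3 were counted in every library, Alb with 105 to 790 reads, Fgb with 1 to 1156 and Apoa2 with 6 to 95. Ahsg and Cps1 had no read in 12 of 14 libraries each and Serpina1c in 10, with at most 3 reads in any. Alb, Fgb and Apoa2 summed to between 694 and 1236 normalized counts in PT-D, above the other groups (153 to 724 over their libraries) but for T-D replicate 2. Whether liver RNA had a part in the Apoc3 values was not tested.

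Cd36 (ENSMUSG00000002944.16, chromosome 5 from 17986432 to 18094067) encodes the scavenger receptor that takes up long-chain fatty acids and oxidised lipoproteins. It had 3913, 4462, 2516 and 2616 normalized counts in T-ND and 2614, 1461, 1222 and 2848 in T-D. PT-ND libraries had 1999, 2956 and 2273, and PT-D libraries 213, 1749 and 1864. All PT-D libraries lay below all T-ND libraries, as for 11.2% of all genes, and below all PT-ND libraries, as for 15.8%. PT-D replicate 1 lay far below the rest.

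With the tests described above, no comparison called Cd36. The STZ effect averaged over birth groups was −0.82 (SE 0.35, adjusted p = 0.197), PT-D against T-ND −1.42 (SE 0.58, adjusted p = 0.171), PT-D against PT-ND −0.92 (SE 0.55, adjusted p = 0.303), T-D against T-ND −0.75 (SE 0.28, adjusted p = 0.357), PT-D against T-D −0.69 (SE 0.54, adjusted p = 0.483) and PT-ND against T-ND −0.49 (SE 0.22, adjusted p = 0.476). The standard errors of the comparisons with PT-D were the widest. Without the suffix libraries, PT-D replicate 1 among them, PT-D against PT-ND gave −0.24, PT-D against T-ND −0.52 and PT-D against T-D −0.05. PT-D against PT-ND was called without the filter (−0.91, SE 0.27, adjusted p = 0.0121). Cd36 is also made by endothelial cells, whose summed markers were highest in PT-D, and their part in the Cd36 differences was not tested.

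Acadm (ENSMUSG00000062908.13, chromosome 3 from 153627989 to 153650317) is the medium-chain dehydrogenase gene of mitochondrial beta-oxidation and the most abundant of the 8 in counts. It had 38212, 44192, 27646 and 27730 normalized counts in T-ND and 29382, 20235, 18554 and 35952 in T-D. PT-ND libraries had 26272, 27902 and 37995, and PT-D libraries 9713, 18639 and 20889. PT-D libraries lay below all PT-ND libraries, as for 15.8% of all genes, and below all T-ND libraries, as for 11.2%.

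Acadm in PT-D against PT-ND differed by −0.90 (SE 0.27, adjusted p = 0.0502), from 30723 ± 6350 to 16414 ± 5911 normalized counts (SD, n = 3 each). It was called without PT-ND replicate 1 (adjusted p = 0.0454), with RLE factors (adjusted p = 0.0452), with the suffix as a covariate (adjusted p = 0.0188) and in DESeq2 (adjusted p = 0.00443), and was −0.70 (adjusted p = 0.114) among libraries without the suffix. PT-D against T-ND gave −1.08 (SE 0.27, adjusted p = 0.0604), called without T-ND replicate 3 (adjusted p = 0.0307), and −0.50 (adjusted p = 0.139) among libraries without the suffix. The STZ effect averaged over birth groups was −0.65 (SE 0.20, adjusted p = 0.0835), called without T-D replicate 4 (adjusted p = 0.0321), T-D against T-ND −0.42 (SE 0.24, adjusted p = 0.506) and PT-D against T-D −0.68 (SE 0.30, adjusted p = 0.209). The interaction was −0.50 (SE 0.40, adjusted p = 0.472). The 8 markers of proximal tubules, which are rich in this enzyme, summed to between 153824 and 180284 normalized counts in PT-ND and 134048 and 166408 in PT-D.

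Acadm and Cd36 rose and fell together over the libraries. Their log2 CPM (counts scaled to library size) had a Pearson r of 0.92 (Spearman 0.91) over the 14 libraries, 0.86 after each group's mean was taken out, and 0.84 without the 2 libraries farthest from the median of Acadm. T-ND replicate 2 was highest and PT-D replicate 1 lowest in both. The points share their library, its depth and its cell composition.

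**Figure D2:**
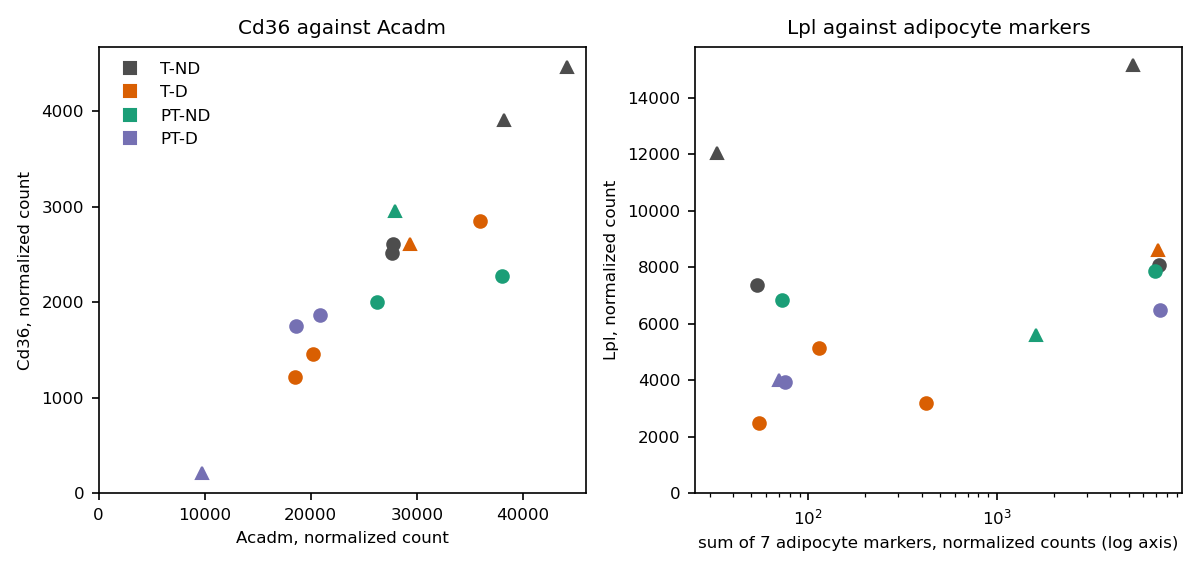
Left, Cd36 against Acadm in normalized counts in the 14 libraries, coloured by group, with triangles for the suffix a; PT-D replicate 1 stands at the lower left (9713 and 213) and T-ND replicate 2 at the upper right (44192 and 4462). Right, Lpl in normalized counts against the sum of 7 adipocyte markers on a log axis; libraries with high sums occur in every group.

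Pdk4 (ENSMUSG00000019577.7, chromosome 6 from 5483097 to 5496339), whose promoter is printed above, had 555, 639, 2416 and 2110 normalized counts in T-ND and 4207, 4703, 4252 and 2893 in T-D. PT-ND libraries had 4784, 2485 and 847, and PT-D libraries 3626, 3285 and 5236. T-D and PT-D libraries lay above all T-ND libraries, as for 2.9% and 12% of all genes, but the PT-ND libraries spanned 5.65-fold and overlapped both STZ groups.

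The STZ effect on Pdk4 averaged over birth groups was 1.04 (SE 0.36, adjusted p = 0.122). It was 1.47 in T-D against T-ND (SE 0.42, adjusted p = 0.235), 1.49 in PT-D against T-ND (SE 0.48, adjusted p = 0.102) and 0.58 in PT-D against PT-ND (SE 0.45, adjusted p = 0.436), and the interaction was −0.91 (SE 0.72, adjusted p = 0.472). DESeq2 called T-D against T-ND (adjusted p = 0.0191), and the fit with the suffix as a covariate called PT-D against T-ND (1.62, adjusted p = 0.0366). Without T-ND replicate 3 edgeR called the averaged effect (1.22, adjusted p = 0.0496), T-D against T-ND (1.87, adjusted p = 0.0457) and PT-D against T-ND (1.87, adjusted p = 0.0345). PT-D against PT-ND moved from 0.16 without PT-ND replicate 3 to 1.27 without PT-ND replicate 1, and the interaction from −1.33 to −0.20 without the same libraries. Among libraries without the suffix T-D against T-ND gave 0.80 and PT-D against T-ND 0.90 (adjusted p = 0.635 and 0.143). Pdk4 and Angptl4 had a Pearson r of 0.88 (Spearman 0.75) over the 14 libraries, 0.74 within groups and 0.70 without the 2 libraries farthest from the median of Pdk4.

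Cpt1a and Ehhadh had the smallest STZ effects of the 8 averaged over birth groups. Cpt1a (ENSMUSG00000024900.6, chromosome 19 from 3371853 to 3437996) had 5910, 5303, 7550 and 7864 normalized counts in T-ND and 6087, 5897, 6741 and 4356 in T-D. PT-ND libraries had 6394, 5672 and 4899, and PT-D libraries 6699, 6954 and 6926. The PT-D libraries lay above all PT-ND libraries, as for 18.7% of all genes, with a difference of 0.28 (SE 0.15, adjusted p = 0.252). Averaged over birth groups the STZ effect was 0.04 (SE 0.12, adjusted p = 0.909), and the interaction was 0.48 (SE 0.25, adjusted p = 0.243).

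Ehhadh (ENSMUSG00000022853.8, chromosome 16 from 21580036 to 21606563) had 16297, 17975, 12754 and 14450 normalized counts in T-ND and 14426, 13507, 13219 and 14022 in T-D. PT-ND libraries had 15236, 14375 and 15398, and PT-D libraries 10359, 11640 and 16969. All groups overlapped, and the STZ effect averaged over birth groups was −0.18 (SE 0.12, adjusted p = 0.432).

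**Figure D3:**
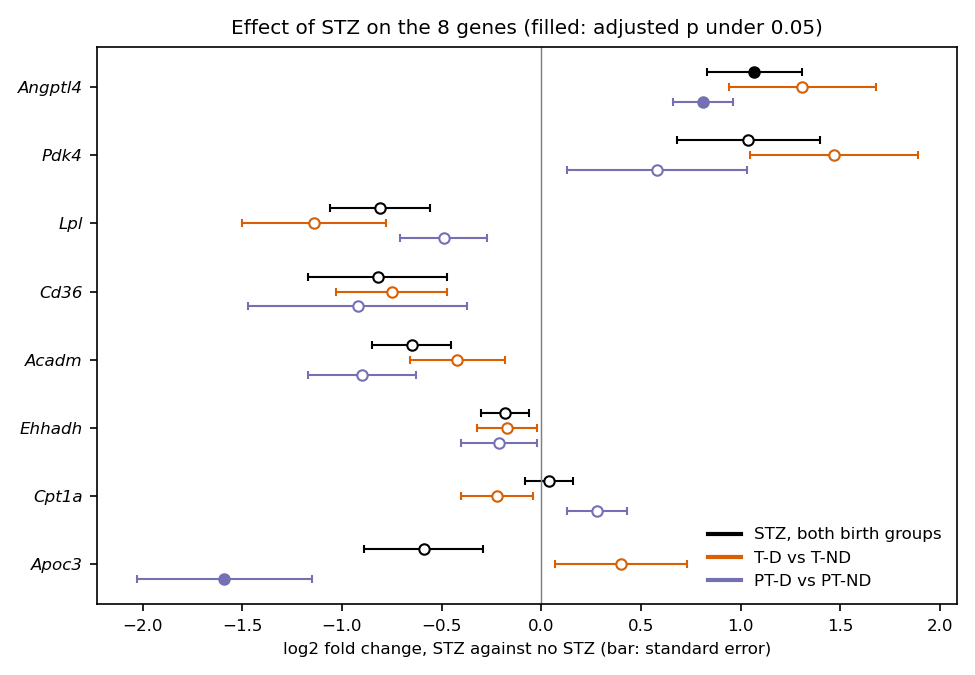
Log2 fold change of STZ against no STZ for the 8 genes, averaged over birth groups and in term and preterm mice apart; bars are standard errors and filled points have an adjusted p under 0.05. Angptl4 is filled averaged over birth groups (1.07) and in PT-D against PT-ND (0.81), and Apoc3 in PT-D against PT-ND (−1.59).

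Compared per length, as normalized counts per kilobase of exon scaled to library size (RPKM), the levels fell into tiers over the 14 libraries. Ehhadh (229 ± 32.4) and Acadm (215 ± 73.8) were highest (mean ± SD, n = 14), Angptl4 (45.3 ± 19.5), Pdk4 (39.1 ± 20.5), Cpt1a (28.2 ± 4.45) and Lpl (28 ± 14) followed, and Cd36 (9.15 ± 4.21) and Apoc3 (2.61 ± 1.42) were lowest. Ehhadh and Acadm overlapped, as did Angptl4, Pdk4, Cpt1a and Lpl, and these neighbours did not differ beyond their spread. Exons of all annotated transcripts were counted as length, which lowers the level of genes with long rare exons. Of Cpt1a 3.282% and of Lpl 0.777% of the exon bases lie under noncoding RNA genes on the opposite strand, whose reads unstranded counts cannot tell apart, and none of the other 6 genes shares exon bases.

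In T-D against T-ND edgeR called none (0.0673% of all genes), 4 had an unadjusted p under 0.05 (11.8% of all genes), and DESeq2 called Angptl4 and Pdk4. In PT-D against T-ND edgeR called none (2.76% of all genes), 5 had an unadjusted p under 0.05 (24.3% of all genes), and DESeq2 called Lpl, Acadm and Angptl4. In PT-D against T-D edgeR called none (0.193%), 2 had an unadjusted p under 0.05 (22.3%), and DESeq2 called Apoc3. In PT-ND against T-ND (0.0809%) and for the preterm effect averaged over STZ (0.0537%) neither tool called any, and 2 and 0 of the 8 had an unadjusted p under 0.05 in edgeR (10.7% and 10.9% of all genes). For the interaction edgeR called none of the 8 (6.23% of all genes), 1 had an unadjusted p under 0.05 (24.5%), and DESeq2 called Apoc3. Of all genes DESeq2 called 472 of 22275 in T-D against T-ND and 2750 of 22310 in PT-D against T-ND. It called 2262 of 22294 in PT-D against T-D and 3086 of 22339 for the interaction. The median log2 fold change of the 8 was −0.38 for STZ averaged over birth groups, against 0.01 over all genes, with 3 of 8 above 0. Comparisons with the same T-ND or PT-D libraries share these libraries.

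The genes whose log2 CPM followed each member most closely were taken from 12169 genes over the 14 libraries. For Angptl4 they were Cdkn1a, the p53-induced cell cycle inhibitor (Pearson r 0.942), Stk19 (0.917) and Cspg4 (0.914), and for Pdk4 Apbb3 (0.933) and the apoptosis genes Apaf1 (0.924) and Bcl2l11 (0.923). For Lpl they were Mfap3l (0.922), Postn (0.922), which encodes the matrix protein periostin, and Thumpd2 (0.894). For Cd36 they were the transporter gene Slc7a12 (0.985), Mpv17l (0.98) and C8a (0.979), and for Acadm the zinc transporter gene Slc39a8 (0.98), Myo5a (0.977) and Kyat3 (0.973). Apoc3 was followed by Apom (0.926), another apolipoprotein gene, Cpb2 (0.903) and Gm4366 (0.902), Cpt1a by Rufy2 (0.936), Itch (0.934) and Proser1 (0.931), and Ehhadh by Gpm6a (0.882), Abcc3 (0.863) and Tmem169 (0.859). These are descriptions over libraries that share group, depth and composition.

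Around the 8 genes, 99 others of lipid and pyruvate metabolism were listed in 11 lists, of which 97 were tested. After STZ in preterm mice 4 of the 97 rose and 15 fell, 19.6% of the list against 12.9% of all genes, and without the suffix libraries 4 rose and 2 fell. After STZ in term mice edgeR called none of the 97, 15 had an unadjusted p under 0.05 (11.8% of all genes), and DESeq2 called 2, against 472 of all 22275 genes. The interaction of preterm birth and STZ was called for 7, of which 1 was above 0 and 6 were below, 7.22% against 6.23% of all genes, and without the suffix libraries none was called. STZ averaged over birth groups changed 5 (5.15% against 3.01%), PT-D against T-ND changed 5 (5.15% against 2.76%) and PT-D against T-D changed 1 (1.03% against 0.193%). In PT-ND against T-ND and for the preterm effect averaged over STZ edgeR called none of the 97, and DESeq2 called 1 in each (294 and 141 of all genes). An unadjusted p under 0.05 was found in edgeR for 11 and 16 of them (10.7% and 10.9% of all genes).

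Of 16 mitochondrial beta-oxidation genes, 15 had a fold change below 0 in PT-D against PT-ND, with a median of −0.28 against 0.05 over all genes. Only 2 of the 16 were called, both lower, a share close to the 12.9% of all genes. The 2 were the enoyl-CoA hydratase gene Echs1 (−0.64, adjusted p = 0.0266) and the acetyl-CoA acetyltransferase gene Acat1 (−0.55, adjusted p = 0.0379). In T-D against T-ND 12 of the 16 were above 0, with a median of 0.13 and no call. The interaction median was −0.50 with 14 of 16 below 0 and no call, against 0.07 over all genes. Echs1 also fell in PT-D against T-ND (−0.57, adjusted p = 0.0401). Among the 6 carnitine shuttle genes the carnitine acetyltransferase gene Crat fell in PT-D against PT-ND (−0.52, adjusted p = 0.0411).

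Of 11 peroxisomal genes 3 fell in PT-D against PT-ND and none rose, where 12.9% of all genes were called. The thiolase gene Acaa1b had 9939 ± 507 normalized counts in PT-ND and 5702 ± 155 in PT-D (SD, n = 3 each), a difference of −0.80 (SE 0.14, adjusted p = 0.00796). The acyl-CoA thioesterase gene Acot8 fell by 0.76 (adjusted p = 0.0162) and the dienoyl-CoA reductase gene Decr2 by 0.62 (adjusted p = 0.0228). All 3 were also called in the interaction, at −0.92, −1.01 and −0.91 (adjusted p = 0.0351, 0.0408 and 0.0326). Acaa1b has the close paralogue Acaa1a, between which reads could be split.

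Of 6 genes of CYP4A enzymes, which carry out omega-oxidation, 2 rose in PT-D against PT-ND and none fell, where 12.9% of all genes were called. Cyp4a12b had 9.05 to 13.6 normalized counts in PT-ND and 119 to 222 in PT-D, a difference of 4.02 (SE 0.37, adjusted p = 0.00084), and Cyp4a12a rose by 1.90 (SE 0.32, adjusted p = 0.00709). Both also rose in PT-D against T-ND (3.59 and 1.72, adjusted p = 0.0245 and 0.0205) and with STZ averaged over birth groups (2.77 and 1.20, adjusted p = 0.00738 and 0.014). The 2 are near-identical copies known as male-biased genes of mouse kidney, and reads that fit both could not be placed.

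Among the genes of fatty acid uptake, binding and activation, 1 of 11 rose and 2 fell in PT-D against PT-ND, where 12.9% of all genes were called. Acsl4, which activates arachidonic acid, went from 940 ± 230 to 2175 ± 572 normalized counts (1.21, SE 0.22, adjusted p = 0.00923). Fabp5 went from 355 ± 16.4 to 146 ± 32.2 (−1.28, SE 0.21, adjusted p = 0.0065), and the proximal tubule fatty acid transporter and acyl-CoA synthetase gene Slc27a2 fell by 0.86 (adjusted p = 0.0385). Slc27a2 fell with STZ averaged over birth groups too (−0.56, adjusted p = 0.0432). The interaction was 1.38 for Acsl4 and −1.17 for the heart-type binding protein gene Fabp3 (adjusted p = 0.044 and 0.0441), and Fabp3 fell in PT-D against T-ND (−0.65, adjusted p = 0.0486).

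In the list of lipoprotein lipase partners, apolipoproteins and receptors, 12 of 14 genes had enough counts and none was called in a pair of groups. Only the interaction of Lmf1, which folds the lipase, was called (−0.67, adjusted p = 0.0432).

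Of the 6 listed genes of pyruvate dehydrogenase control, 3 were called in PT-D against PT-ND, where 12.9% of all genes were and Pdk4 was not. The kinase genes Pdk3 (−0.87, adjusted p = 0.0142) and Pdk1 (−0.68, adjusted p = 0.0432) fell, and Pdp1, the phosphatase that reactivates the enzyme, rose (1.04, adjusted p = 0.0155). Pdk3 fell in PT-D against T-ND as well (−0.90, adjusted p = 0.0302). Of the 7 genes of PPARs and coactivators, the nuclear receptor gene Esrra fell in PT-D against PT-ND (−0.67, adjusted p = 0.0204) and was called in the interaction (−0.91, adjusted p = 0.0244), and Ppargc1b fell with STZ averaged over birth groups (−0.82, adjusted p = 0.0317). Of the 4 ketone body genes the dehydrogenase gene Bdh1 fell in PT-D against PT-ND (−1.37, adjusted p = 0.0309) and with STZ averaged over birth groups (−0.98, adjusted p = 0.049).

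The lipolysis inhibitor G0s2 was the one listed gene called in PT-D against T-D, at −1.68 (SE 0.23, adjusted p = 0.0147). It had 318 ± 25.2 normalized counts in PT-D, 1013 ± 266 in T-D and 1069 ± 388 in PT-ND, and fell against PT-ND by 1.75 (adjusted p = 0.00317). The triglyceride synthesis gene Dgat2 (−0.69, adjusted p = 0.0386) and the malonyl-CoA decarboxylase gene Mlycd (−0.82, adjusted p = 0.0136) fell in PT-D against PT-ND. Of the PT-D against PT-ND calls above, those of Acaa1b, Cyp4a12a, Cyp4a12b, Acsl4, Fabp5 and G0s2 were made in all 6 fits that left out a library, and the other 13 in 0 to 4 of them. In the other comparisons, the calls of both Cyp4a12 genes for STZ averaged over birth groups and of G0s2 in PT-D against T-D were made in all such fits, and that of the Esrra interaction in 12 of 14. Those of Ppargc1b, Bdh1 and Slc27a2 for STZ averaged over birth groups were made in 3 of 14 fits each. The other interaction calls were made in 2 (Lmf1) to 7 (Decr2) of 14 fits. In PT-D against T-ND the calls of Echs1, Pdk3 and Fabp3 were made in 1 of 7 fits each, that of Cyp4a12b in 3 and that of Cyp4a12a in 4. The summed endothelial and podocyte markers stood higher in every PT-D library, as given above, and their part in these differences was not tested.

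**Figure D4:**
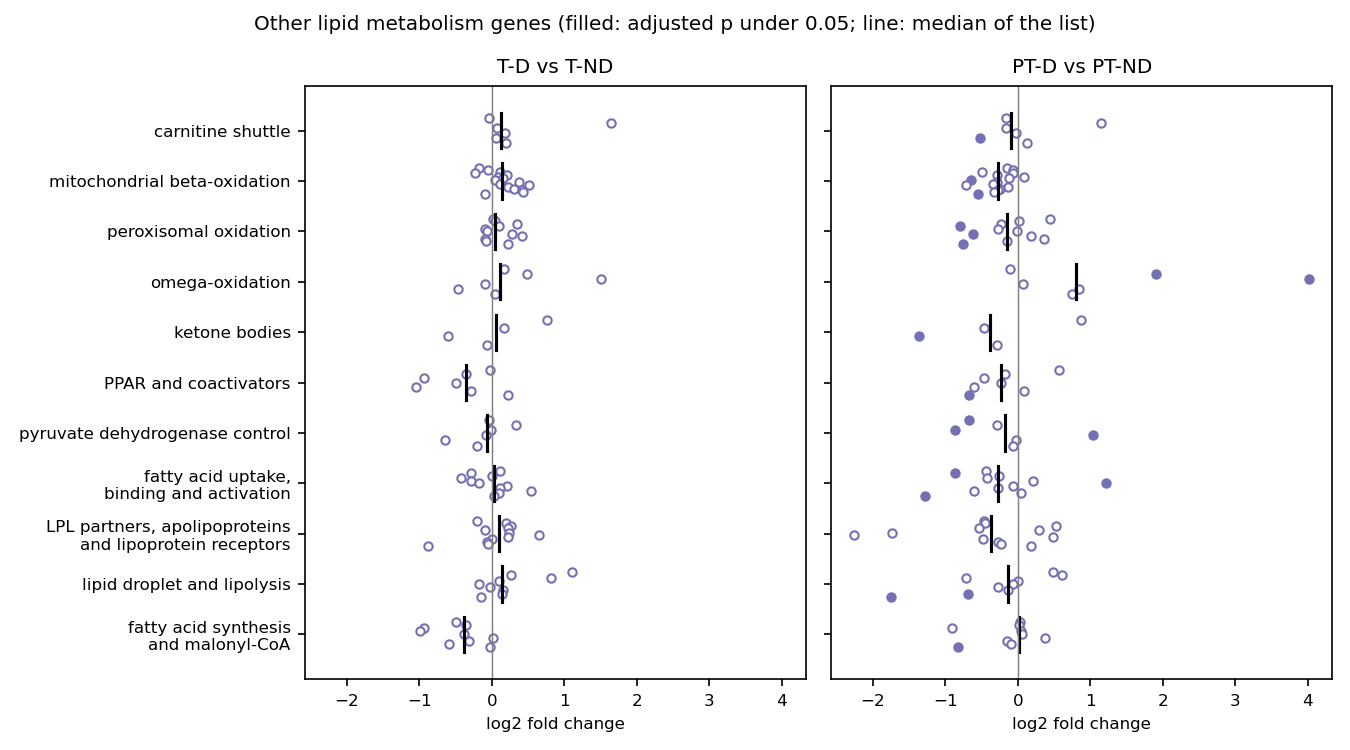
Log2 fold change with STZ of the tested genes of 11 lists of lipid and pyruvate metabolism, in term mice (left) and preterm mice (right); filled points have an adjusted p under 0.05 and black lines mark list medians. No point is filled on the left, and 19 are on the right, 4 above 0 and 15 below.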

How the data were processed

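Per the labels, total RNA of whole kidneys was sequenced as unstranded poly(A) libraries. The authors trimmed the reads, aligned them to GRCm39 with STAR and GENCODE release 36, and deposited raw counts per gene, of which the unstranded counts were used. Reads on more than 1 gene, 6.86% to 8.09% of uniquely mapped reads, were left uncounted. Symbols and positions came from release 39, which held 56236 of the 56980 IDs without their version.

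Genes with a total above 10 counts over the 14 libraries were kept, 22339 in all. Pairs of groups were fitted on their own libraries, and the averaged effects and the interaction on all 14, in edgeR 4.0.16 (R 4.3.3) with TMM factors and the quasi-likelihood F test. P-values were adjusted by the method of Benjamini and Hochberg. The study itself used DESeq2, run here in version 1.42.0 as an alternative. Samples were grouped by their titles. The fit was tested on simulated data. The members and lists were chosen with earlier results of these data known. Of the lists, the called genes are named, at most 4 per list and comparison. For each member the 3 genes with the highest Pearson r are named.

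Alternatives were RLE factors, DESeq2, no filter, the suffix as covariate or its libraries left out, a replicate block, a joint fit, the fold threshold, each library left out and, chosen after seeing the data, libraries low in Adipoq only.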

Additional observations from a re-analysis of the deposited data

How the results depend on the processing

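Apoc3 had at most 326 reads a library. Genes called in PT-D against T-ND, 616, numbered 2750 with DESeq2, 1341 without a filter on low counts, 976 with the suffix as a covariate, 70 without the suffix libraries, 6 in libraries low in Adipoq and 323 with the fold threshold, and 28 to 2356 when a library was left out. In PT-D against T-D the 43 became 2262 with DESeq2, 1694 without a filter, 23 with the suffix as a covariate, 17 without the suffix libraries, 1323 in the joint fit and 25 in libraries low in Adipoq (26 to 241 with a library left out). In T-D against T-ND the 15 became 472, 120, 1, 69 and 6 with DESeq2, without a filter, without the suffix libraries, in the joint fit and in libraries low in Adipoq (2 to 314). The 2881 of PT-D against PT-ND became 956 without the suffix libraries and 1105 with the fold threshold (856 to 3453). The 18 of PT-ND against T-ND became 294 with DESeq2, 97 without a filter and 47 with the suffix as a covariate (1 to 100). For STZ averaged over birth groups the 673 became 1869 with DESeq2, 1303 without a filter, 61 without the suffix libraries, 7 in libraries low in Adipoq and 285 with the fold threshold (131 to 1626). For the preterm effect the 12 became 141 with DESeq2 and 89 without a filter (3 to 17), and for the interaction the 1392 became 3086 with DESeq2 and 12 without the suffix libraries (76 to 1703). Leaving out T-ND replicate 3 gave the highest count in 5 of these. For the 97 listed genes DESeq2 called 15 in PT-D against T-ND (5 in edgeR), 21 in PT-D against T-D (1), 10 for STZ averaged over birth groups (5) and 27 for the interaction (7). Among all genes DESeq2 called, in the same order, 2750 of 22310, 2262 of 22294, 1869 of 22339 and 3086 of 22339. The cause was not tested.

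Without the filter on low counts, calls were gained by Pdk4, Acadm and Lpl for STZ averaged over birth groups (adjusted p = 0.0232, 0.0253 and 0.0172) and in PT-D against T-ND (0.0428, 0.0219 and 0.018), by Acadm and Cd36 in PT-D against PT-ND (0.00108 and 0.0121), and by Apoc3 in PT-D against T-D (0.0351) and in the interaction (0.0205).

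Same-numbered libraries of different groups had a median correlation of deviations of −0.148 over 19 pairs, so that the numbers do not pair the mice. With a replicate block the calls were 73 in PT-D against T-ND, 87 in PT-D against T-D, 6 in PT-ND against T-ND, 321 for STZ averaged over birth groups, 3 for the preterm effect and 668 for the interaction. Among the 8 genes the block added calls of Acadm and Cd36 in PT-D against PT-ND (adjusted p = 0.0107 and 0.0149) and of the Apoc3 interaction (0.0371).

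Among the values given for single genes, the sign turned only for the Cpt1a STZ effect averaged over birth groups (0.04), which was −0.07 without the suffix libraries, −0.05 in libraries low in Adipoq and −0.01 to 0.09 with a library left out.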

Other observations

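The 9 genes of fatty acid synthesis and malonyl-CoA were lower on balance in term mice after STZ, with 8 below 0 and a median log2 fold change of −0.39 in T-D against T-ND, against −0.02 over all genes. EdgeR called none of the 9, 4 had an unadjusted p under 0.05 (11.8% of all genes), and DESeq2 called Scd2 (adjusted p = 0.000994) among 472 of 22275 genes. EdgeR called Scd2 without the filter on low counts (adjusted p = 0.0261), without T-ND replicate 3 (0.0325) and without T-D replicate 1 (0.0384). The desaturase gene Scd2 gave −0.99 (SE 0.19, adjusted p = 0.0991), Scd1 −0.94 (SE 0.28, adjusted p = 0.248) and the elongase gene Elovl6 −0.59 (SE 0.16, adjusted p = 0.203), all 3 chosen after their values were seen. In PT-D against PT-ND the median was 0.02, against 0.05 over all genes. A difference between the 2 STZ effects was not tested over the list. All 7 adipocyte markers were below 0 in T-D against T-ND too, with a median of −0.64 and no call. Their part in the differences of the 9 genes was not tested.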
